A study of Mus musculus with 5 samples.

Results

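The 44 genes described here encode collagens, laminins, proteoglycans and glycoproteins of the extracellular matrix, the enzymes and inhibitors that remodel it, and markers of fibroblasts and of mesothelial cells, the lining of the body cavities. They were taken as a list of symbols out of 49260 genes in the deposited tables, and each symbol matched 1 gene identifier. The list was drawn up with the values of these same libraries known, so the levels and ratios below are a description and carry no test. In all, 33 of the 44 genes reached 1 CPM (counts per 1000000, each library rescaled to that total) in at least 1 library, as did 17329 of all genes.

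RNA from regulatory T cells (Tregs, the Foxp3-expressing T cells that restrain immune responses) sorted from C57BL/6 mice was sequenced in 5 libraries, 1 per group. All mice carried Foxp3Cre. The groups were Tregs of adipose tissue from 10-month Med23fl/fl;Foxp3Cre mice (the library labelled Med23 KO), from 10-month Foxp3Cre mice, from 4-month obese Foxp3Cre mice (a high-fat diet by the letters of the sample title) and from 4-month Foxp3Cre mice with no obesity named (called lean here), and Tregs of lymph nodes (LN) from 4-month Foxp3Cre mice. Because Foxp3 drives the Cre, the floxed Med23 gene, which encodes a subunit of the Mediator complex, models a loss in Tregs and not in stromal cells. The sources used here give neither the sort gate nor the number of mice behind each library.

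Fibroblasts and their precursors in fat secrete fibrillar collagens, collagen VI, fibronectin and small leucine-rich proteoglycans, and adipocytes, endothelium and smooth muscle rest on a basement membrane of collagen IV, laminin and nidogen. Visceral fat is also covered by mesothelium. T cells are not known as a main source of fibrillar collagen, but they carry integrins and other receptors that bind matrix.

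The libraries held 4595046 to 9694474 listed reads, fewest in the Med23 KO-labelled library, and differed in ways the groups do not name. The Treg and T cell list had 9 of 9 genes at 1 CPM or more in each library, with sums of 7264 to 9622 CPM, and Foxp3 was at 155, 185, 180.1 and 216 CPM in the Med23 KO-labelled, 10-month Foxp3Cre, obese and lean adipose libraries and at 52.5 CPM in LN. Both 4-month adipose libraries had the Y-linked gene Ddx3y (562 CPM in obese, 559.7 CPM in lean), little Xist (3.60 and 0 CPM) and little of the glycolytic gene Gapdh (10.7 and 1.05 CPM), whereas the other 3 libraries had no Ddx3y, 228 to 602 CPM of Xist and 548 to 979 CPM of Gapdh. Med23 itself stood at 13.9 scaled counts in the Med23 KO-labelled library and at 7.02 in 10-month Foxp3Cre, from 71 and 61 reads. Its level was thus not lower, as the label would have it. A count over the whole gene cannot show whether floxed exons were deleted, and the deleted exons are not given, so the label could not be checked. With 1 library per group, no difference below has a replicate check, and intervals cover counting error only. In such bulk RNA, fewer cells of a type and less RNA per cell cannot be told apart.

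The sequences shown here are the 150 bases before the annotated start of the members at 60 CPM or more in lean adipose for which RefSeq (GRCm38.p6) gave a window, since these are the members with the most reads there. They are printed 5′ to 3′ on the strand of the gene, with letters of the searched motifs in capitals. Sult1e1 lies at chr5:87591612-87591761 (minus strand), Ptx3 at chr3:66219737-66219886 (plus strand), Col3a1 at chr1:45311388-45311537 (plus strand) and Sparc at chr11:55420081-55420230 (minus strand). Tm4sf1 lies at chr3:57301989-57302138 (minus strand), Nid1 at chr13:13437452-13437601 (plus strand) and Timp2 at chr11:118355412-118355561 (minus strand). Timp2 is the one gene of these 7 whose level in lean adipose did not exceed that in LN.
Sult1e1: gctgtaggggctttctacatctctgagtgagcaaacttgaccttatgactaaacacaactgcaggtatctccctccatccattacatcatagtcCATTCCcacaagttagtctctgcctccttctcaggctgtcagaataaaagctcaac
Ptx3: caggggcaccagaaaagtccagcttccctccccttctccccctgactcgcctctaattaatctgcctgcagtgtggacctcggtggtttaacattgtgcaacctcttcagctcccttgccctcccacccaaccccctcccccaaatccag
Col3a1: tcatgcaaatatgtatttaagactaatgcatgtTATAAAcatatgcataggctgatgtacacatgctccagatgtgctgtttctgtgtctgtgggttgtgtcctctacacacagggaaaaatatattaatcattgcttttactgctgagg
Sparc: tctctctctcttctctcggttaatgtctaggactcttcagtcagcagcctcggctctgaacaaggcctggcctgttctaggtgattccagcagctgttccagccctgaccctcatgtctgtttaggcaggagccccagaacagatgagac
Tm4sf1: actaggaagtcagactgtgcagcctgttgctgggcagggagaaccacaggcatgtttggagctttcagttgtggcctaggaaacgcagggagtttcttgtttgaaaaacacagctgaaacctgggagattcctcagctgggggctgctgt
Nid1: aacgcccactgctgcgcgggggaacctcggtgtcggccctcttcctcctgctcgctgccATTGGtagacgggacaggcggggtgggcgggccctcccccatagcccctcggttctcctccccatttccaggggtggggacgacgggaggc
Timp2: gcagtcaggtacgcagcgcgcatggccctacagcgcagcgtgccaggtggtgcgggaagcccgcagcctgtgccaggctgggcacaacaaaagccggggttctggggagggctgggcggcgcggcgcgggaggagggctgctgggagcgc

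Both strands were searched for 4 motifs, none of which overlaps another in these windows. The first was TATAAA, the letters of the core promoter element called the TATA box, and the capitals in Col3a1 mark a match. This match lies nearer the far end of the window than the annotated start. Only letters were searched, so whether any match acts as the named element or site was not tested. The CCAAT box, another promoter element, was found on the opposite strand in Nid1. The binding site of TEAD factors, searched as GGAATG, was found on the opposite strand in Sult1e1. The binding site of AP-1 factors, searched as TGANTCA, was found in none of the 7. A member counts as having a motif if any of its windows holds it, while the percentages are over single windows. Counts of members and these percentages are therefore not like measures. Of the 44 members, 29 had a window, and the first motif was in 3 of them, against 7.57% of all 32851 windows. The second was in 8 of the 29, against 24.5% of all, the TEAD site in 2, against 7.59%, and the AP-1 site in 1, against 4.24%.

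The question behind the first comparison was how Tregs of adipose tissue differ from Tregs of LN. Lean adipose held most of these genes and LN few of them: 32 members had a value of at least 1 in either library, all 32 of them in lean adipose and 4 in LN. Of the 32, lean adipose had 30 at least 2-fold higher, where 37.6% of 13502 measured genes were, and 1 was at least 2-fold lower, where 32.1% of all were. A ratio counts as 2-fold here on the log2(value + 1) scale of the deposited scaled read counts, in which values under 1 are listed as 0. The median log2 ratio of the members was 3.65, against 0.14 over all measured genes. In LN, 28 of the 30 higher members were listed at 0. Of the 5083 higher genes among all 13502 measured, 2861 were at 0 there. In every comparison here, a gene at 0 in 1 library and at 1 or more in the other counts as 2-fold by this rule. Such a call says only that the gene had a value in 1 library and not in the other. Of the 40 members with no value above 0 in LN, 24 had a log2 ratio in the authors' deposited tables, from which LN had 1 read each of Dcn and Col6a3, 2 of Bgn and none of the other 21. The remaining 16 had no such ratio and were taken as having no reads. In what follows, 0 stands for a value listed as 0 or for no value.

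**Figure D1:**
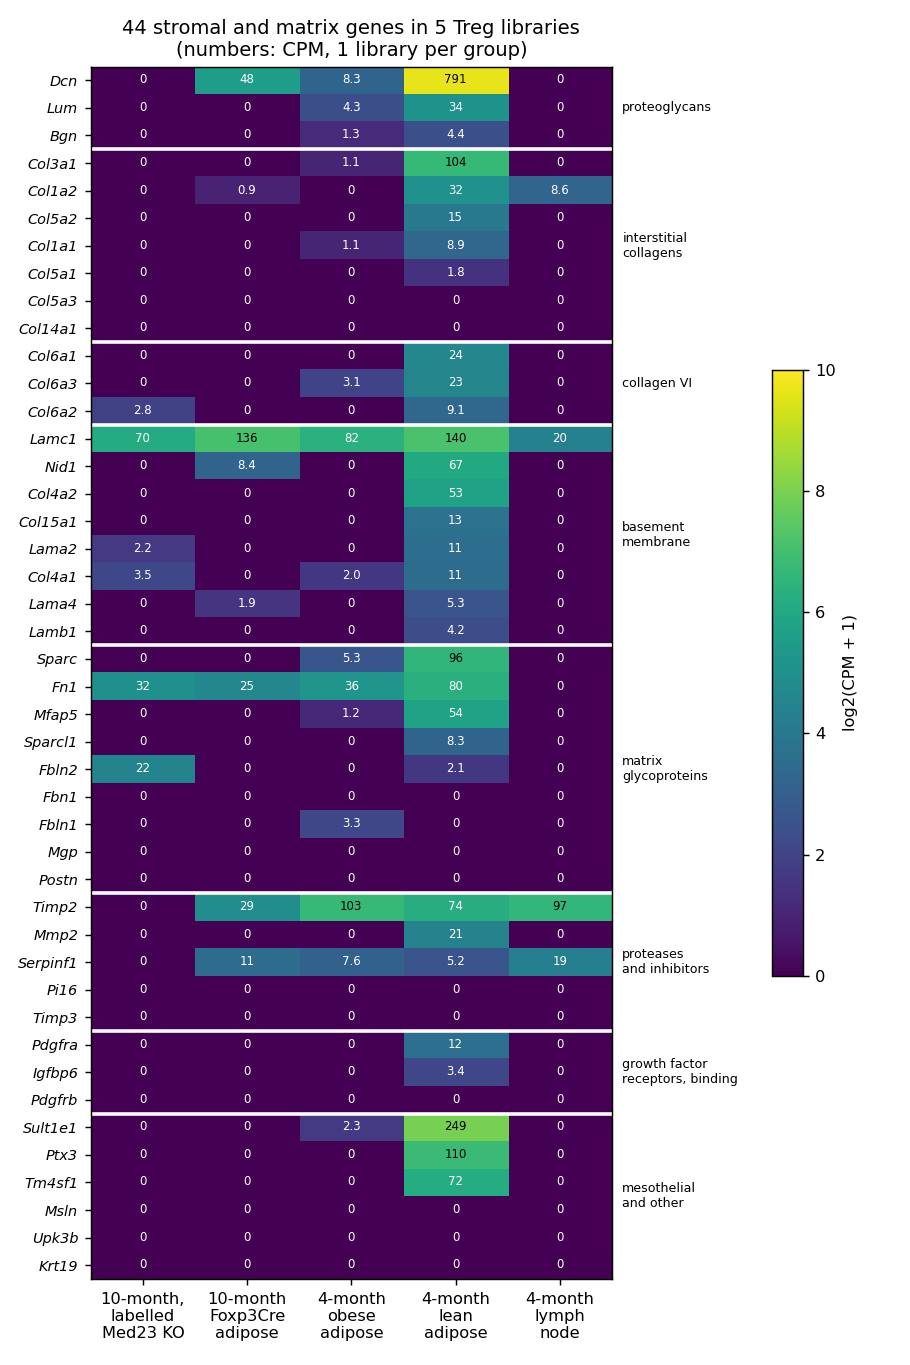
Level of each of the 44 genes (rows, grouped by role) in the 5 libraries (columns, 1 library per group); the colour is log2(CPM + 1) and the printed number is the CPM. The lean adipose column holds 32 genes at 1 CPM or more, against 6 in the Med23 KO-labelled library, 7 in 10-month Foxp3Cre, 15 in obese adipose and 4 in LN.

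Among the small leucine-rich proteoglycans, which bind collagen fibrils, Dcn (decorin) was at 0, 47.98 and 8.27 CPM in the Med23 KO-labelled, 10-month Foxp3Cre and obese adipose libraries, 790.9 CPM in lean adipose and 0 in LN. Lum (lumican) was at 0, 0, 4.27 and 34.1 CPM in the 4 adipose libraries in the same order and at 0 in LN. Bgn (biglycan) was at 0, 0, 1.33 and 4.45 CPM in them and at 0 in LN. All 3 had their highest level in lean adipose and a lower one in obese adipose, and only Dcn reached 1 CPM in a 10-month library. Dcn and Lum are adjacent protein-coding genes on chromosome 10.

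The interstitial collagens, which form fibrils, gave 162 CPM in sum in lean adipose, against at most 8.56 CPM in any other library. Col3a1, the chain of collagen III, was at 0, 0, 1.07 and 103.9 CPM in the Med23 KO-labelled, 10-month Foxp3Cre, obese and lean adipose libraries and at 0 in LN. Col1a1, a chain of collagen I, was at 0, 0, 1.07 and 8.90 CPM in them and at 0 in LN. Col1a2, its partner chain, was the one collagen gene of the 44 with a value in LN: 0, 0.933, 0 and 32.2 CPM in the adipose libraries and 8.56 CPM in LN. In scaled counts lean adipose exceeded LN by 3.41-fold (95% counting interval 2.66 to 4.41), with 30.6 against 8.99. The collagen V genes Col5a1 and Col5a2, whose product sets fibril width, were at 1.76 and 15.5 CPM in lean adipose and at 0 in every other library. Col5a3 and Col14a1 reached 1 CPM in none.

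Collagen VI forms beaded filaments around cells and is made from the products of Col6a1, Col6a2 and Col6a3. Col6a1 was at 23.5 CPM in lean adipose and at 0 in the other 4 libraries. Col6a2 was at 2.83 CPM in the Med23 KO-labelled library, 9.13 CPM in lean adipose and 0 elsewhere. Col6a3 was at 3.07 CPM in obese adipose, 22.6 CPM in lean adipose and 0 elsewhere. Lean adipose was thus the only one of the 5 libraries with all 3 chains at 1 CPM or more.

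All 8 basement membrane members reached 1 CPM in lean adipose, and 2 or 3 of them in each other adipose library. The collagen IV gene Col4a1 was at 3.48, 0, 2.0 and 10.7 CPM in the Med23 KO-labelled, 10-month Foxp3Cre, obese and lean adipose libraries and at 0 in LN. Its adjacent partner Col4a2 was at 53.0 CPM in lean adipose and at 0 in the other 4. Nid1 (nidogen, which links laminin to collagen IV) was at 0, 8.39, 0 and 66.7 CPM in the adipose libraries and at 0 in LN. These 3 genes shared the peak in lean adipose but not the libraries in which they were at 0.

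Laminin chains did not follow 1 pattern. Lamc1, the γ1 chain of most laminins, was at 69.9, 136 and 81.6 CPM in the Med23 KO-labelled, 10-month Foxp3Cre and obese adipose libraries, 140.2 CPM in lean adipose and 20.0 CPM in LN, the one member at 1 CPM or more in all 5. Lean adipose exceeded LN by 6.35-fold (95% counting interval 5.45 to 7.43), at 133 against 21.0 scaled counts. Lama2 was at 2.18, 0, 0 and 11.4 CPM in the adipose libraries and at 0 in LN, Lama4 at 0, 1.87, 0 and 5.27 CPM in them and at 0 in LN. Lamb1 was at 4.22 CPM and Col15a1, a collagen at the outer face of basement membranes, at 12.5 CPM in lean adipose, both at 0 in every other library.

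Of the 9 matrix glycoprotein members, 5 reached 1 CPM in lean adipose. Fn1 (fibronectin, a ligand of integrins) was at 31.6, 24.7, 36.4 and 79.6 CPM in the Med23 KO-labelled, 10-month Foxp3Cre, obese and lean adipose libraries and at 0 in LN, so it was found in each adipose library. Sparc, a collagen-binding glycoprotein, was at 0, 0, 5.34 and 95.8 CPM in them and at 0 in LN. Mfap5, a microfibril protein and a marker of fibroblast progenitors, was at 0, 0, 1.20 and 53.5 CPM in them and at 0 in LN. Sparcl1, a relative of Sparc, was at 8.31 CPM in lean adipose and at 0 elsewhere.

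The 2 fibulin genes, whose products join microfibrils and basement membranes, did not follow the rest. Fbln1 was at 3.33 CPM in obese adipose and at 0 in the other 4 libraries. Fbln2 was at 21.98 CPM in the Med23 KO-labelled library, from 101 reads, 2.11 CPM in lean adipose and 0 in the others. Fbln2 was the one member with its highest level in a 10-month library. Fbn1 (fibrillin), Mgp and Postn (periostin) reached 1 CPM in none.

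Among proteases and inhibitors, Mmp2, a gelatinase, was at 21.0 CPM in lean adipose and at 0 elsewhere. Timp2, an inhibitor of matrix metalloproteinases, was at 0, 29.0, 103 and 74.2 CPM in the Med23 KO-labelled, 10-month Foxp3Cre, obese and lean adipose libraries and at 97.5 CPM in LN. Serpinf1, which encodes the secreted factor PEDF, was at 0, 10.6, 7.60 and 5.15 CPM in them and at 18.8 CPM in LN. Timp2 and Serpinf1 were the 2 members lower in lean adipose than in LN, by 1.45-fold (1.31 to 1.60), at 70.6 against 102 scaled counts, and by 4.02-fold (2.88 to 5.72), at 4.90 against 19.7 scaled counts. Timp3 and the fibroblast progenitor marker Pi16 reached 1 CPM in none.

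Pdgfra, the PDGF receptor that marks fibroblasts and fat progenitors, was at 11.7 CPM in lean adipose and at 0 elsewhere, and Pdgfrb, which marks pericytes and fibroblasts, reached 1 CPM in none. Igfbp6, an insulin-like growth factor binding protein, was at 3.40 CPM in lean adipose and at 0 elsewhere. Sult1e1, the estrogen sulfotransferase, was at 0, 0, 2.27 and 249 CPM in the Med23 KO-labelled, 10-month Foxp3Cre, obese and lean adipose libraries and at 0 in LN. Ptx3, a secreted pentraxin of innate immunity, and Tm4sf1, a tetraspanin-like membrane protein, were at 110.3 and 71.8 CPM in lean adipose and at 0 elsewhere. Lean adipose was again the library that held these genes.

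The mesothelial name of the list was borne out by few of its genes. Msln (mesothelin) and Upk3b, the defining mesothelial markers of the list, and the keratin gene Krt19 had no value in any table. Of 13 further mesothelial genes, 5 reached 1 CPM in lean adipose with a sum of 36.4 CPM, against sums of 2.61, 23.0 and 16.5 CPM in the Med23 KO-labelled, 10-month Foxp3Cre and obese adipose libraries and 3.51 CPM in LN. In scaled counts Krt18 was at 19.5, Krt7 at 5.12 and Nkain4 at 3.68 in lean adipose and each at 0 in LN, while Muc16 was at 0 in lean adipose and 3.68 in LN. Of 14 further fibroblast genes, 8 were measured, 6 higher in lean adipose and 2 lower, the higher ones including Ogn at 75.9, Loxl1 at 42.0, Smoc2 at 15.4 and Gas1 at 10.7 scaled counts, all 4 at 0 in LN. The mesothelial genes had 5 of 6 measured higher and 1 lower.

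Per kilobase of exon, which allows levels of different genes to be set side by side, the 32 members measured in lean adipose ran from 0.207 CPM per kb for Col5a1 to 200.5 for Sult1e1, with a median of 2.94. Dcn followed Sult1e1 at 135 CPM per kb, then Ptx3 at 41.1, Sparc at 25.3 and Timp2 at 19.1. In all, 10 genes were at 10 CPM per kb or more and 6 under 1. Exon lengths were unions over all annotated isoforms, so genes with long unused exons are understated.

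**Figure D2:**
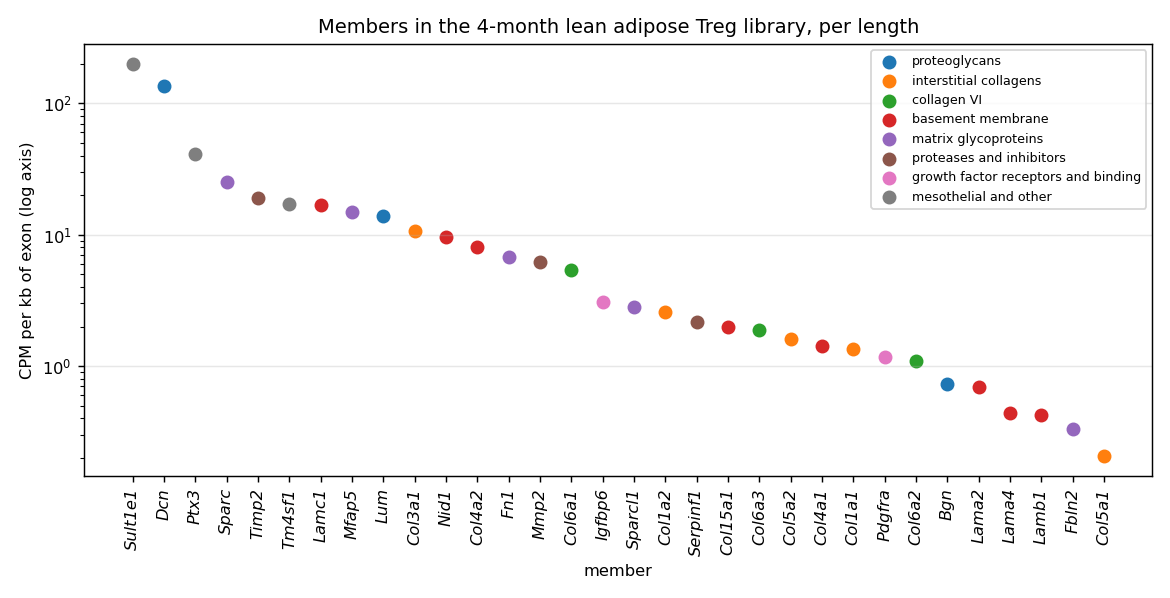
Level of the 32 members measured in the 4-month lean adipose library, in CPM per kb of exon on a log axis, ordered from high to low and coloured by role. Sult1e1 (200.5) and Dcn (135) stand above the next gene, Ptx3 (41.1), and collagen genes lie at 10.6 (Col3a1) and below.

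The other genes of the pathway were mostly higher in lean adipose than in LN too. Of 31 other collagens, 6 were measured, with 4 higher and 0 lower: Col6a5 at 54.5, Col6a6 at 23.95, Col7a1 at 11.5 and Col4a5 at 1.78 scaled counts in lean adipose, each at 0 in LN. Of 10 other basement membrane genes, 8 were measured, with 6 higher and 0 lower, among them Lamb2 at 12.03, Nid2 at 9.80 and Lama5 at 8.80 scaled counts, all at 0 in LN. Of 31 other glycoproteins and proteoglycans, 13 were measured, with 12 higher and 1 lower, among them the thrombospondin gene Thbs1 at 39.3 and Ltbp1, which stores latent TGF-beta, at 29.7, both at 0 in LN. These lists share Ogn, among others, with the fibroblast markers, and the collagen processing list shares Loxl1, among others, with them.

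Enzymes that modify and cross-link collagen were higher in lean adipose in 10 of 11 measured genes and lower in 1, with the lysyl hydroxylase gene Plod2 at 67.2 and the lysyl oxidase gene Lox at 11.8 scaled counts, both at 0 in LN. Other matrix proteases and inhibitors were higher in 9 of 11 and lower in 2, with the gelatinase gene Mmp9 at 48.9 and Adamts1 at 27.3 against 0 in LN, and Mmp11 at 0 in lean adipose against 23.4 in LN. Matrix receptors were higher in 6 of 9 and lower in 1, with the collagen receptor genes Itga1 at 31.0 and Ddr2 at 26.8 against 0. Stromal cytokines and chemokines were higher in 11 of 12 and lower in 1, with Ccl7 at 1003, Cxcl1 at 538.9, Il6 at 313 and Ccl2 at 1193 against 0, 0, 0 and 14.3 in LN. Macrophages and stimulated T cells are also known to make several of these chemokines.

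Beside the matrix genes, other cell type markers also differed between lean adipose and LN. Macrophage markers were higher in 9 of 9 measured genes of 11, with a sum of 887 CPM in lean adipose against 7.01 CPM in LN, and erythroid genes in 4 of 4 measured of 5, with 584 against 0 CPM. The endothelial list summed to 67.3 CPM in lean adipose and 36.3 CPM in LN, with 2 and 1 of 12 genes at 1 CPM or more. Of these 12 genes, 7 were at 0 in all 5 libraries, among them Cdh5, Kdr and Tie1, while Pecam1 was found in all 5, Egfl7 in lean and obese adipose, Vwf and Esam in obese adipose and Tek in the Med23 KO-labelled library, all named after their values were seen. The mural list, for pericytes and smooth muscle, and the adipocyte list were at 0 in both lean adipose and LN. The part of these cell types in the level of the 44 genes was not tested.

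Because the lean adipose and LN libraries differ in the sex-linked genes and in Gapdh, the 10-month Foxp3Cre adipose library, which is like LN in both, was also set against LN in CPM, with age then differing as well. There 8 members were measured, of which 5 were at least 2-fold higher (34.3% of 13140 genes were) and 2 at least 2-fold lower (29.8% were). The 5 were Dcn, Fn1, Nid1 and Lama4, each at 0 in LN, and Lamc1, which was 6.81-fold higher (95% counting interval 5.85 to 7.96) at 136 against 20.0 CPM. Col1a2 was 9.18-fold lower (4.61 to 20.8), at 0.933 against 8.56 CPM, and Timp2 3.36-fold lower (2.94 to 3.85), at 29.0 against 97.5 CPM. Serpinf1 was 1.78-fold lower (1.39 to 2.29), at 10.6 against 18.8 CPM. Of the fibrillar collagens and collagen VI chains higher in lean adipose than in LN, none was higher in the 10-month Foxp3Cre library than in LN.

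The obese adipose library, set against LN in its own table, held 16 measured members. Of these, 13 were at least 2-fold higher, beside 41.7% of 14671 genes, and 2 at least 2-fold lower, beside 23.7%. The median log2 ratio was 1.59, against 0.44 over all genes, and 12 of the 13 were listed at 0 in LN. Of the 6125 higher genes among all 14671, 4030 were at 0 in LN. The levels were low: Fn1 was at 34.3, Dcn at 7.79, Sparc at 5.03, Lum at 4.02 and Fbln1 at 3.14 scaled counts, all at 0 in LN. Lamc1 was 3.62-fold higher (3.08 to 4.28), at 76.9 against 21.2 scaled counts. Serpinf1 was 2.78-fold lower (2.05 to 3.81), at 7.16 against 19.9, and Col1a2 was at 0 in obese adipose, where 2 reads were recovered, against 9.08 in LN. Timp2 was at 97.0 against 103 scaled counts, 1.07-fold lower with an interval of 0.968 to 1.17 that includes no difference.

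Obese adipose against lean adipose asks what obesity goes with in adipose Tregs, and both libraries have like levels of Ddx3y and little Xist and Gapdh. Nearly all members were lower in obese adipose: of 33 measured, 29 were at least 2-fold lower, beside 18.6% of 14764 genes, and 1, Fbln1, at least 2-fold higher, beside 34% of genes. The median log2 ratio in CPM was -3.34, against 0.20 over all genes. Of the 29 lower genes, 18 were at 0 in obese adipose, 3 of them listed as 0 and 15 with no value in its table, which was taken as 0. Of the 2752 lower genes among all 14764, 1164 were at 0 in obese adipose. The 2 columns come from tables that were scaled separately, so both were rescaled to CPM.

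The size of the difference varied among genes with a value in both. Sult1e1 was 109.8-fold lower in obese adipose (95% counting interval 68.4 to 189), Col3a1 97.3-fold (49.2 to 226) and Dcn 95.6-fold (74.5 to 125). Mfap5 was 44.6-fold lower (23.3 to 98.1) and Sparc 17.95-fold (13.1 to 25.3). Lum, Col1a1 and Col6a3 were 7.98-fold (5.53 to 11.9), 8.34-fold (4.02 to 20.0) and 7.37-fold lower (4.77 to 11.9). The adjacent genes Dcn and Lum thus differed by amounts whose intervals do not overlap.

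Smaller differences were found for Col4a1, which was 5.33-fold lower in obese adipose (3.06 to 9.90), Bgn, 3.34-fold lower (1.63 to 7.51), and Fn1, 2.19-fold lower (1.90 to 2.53). Lamc1 was 1.72-fold lower (1.56 to 1.90). Timp2 was 1.39-fold higher (1.25 to 1.54), and Serpinf1 1.48-fold higher with an interval of 0.979 to 2.24 that includes no difference. The 3 genes that stayed within 2-fold, Lamc1, Timp2 and Serpinf1, were also 3 of the 4 genes with a value in LN.

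**Figure D3:**
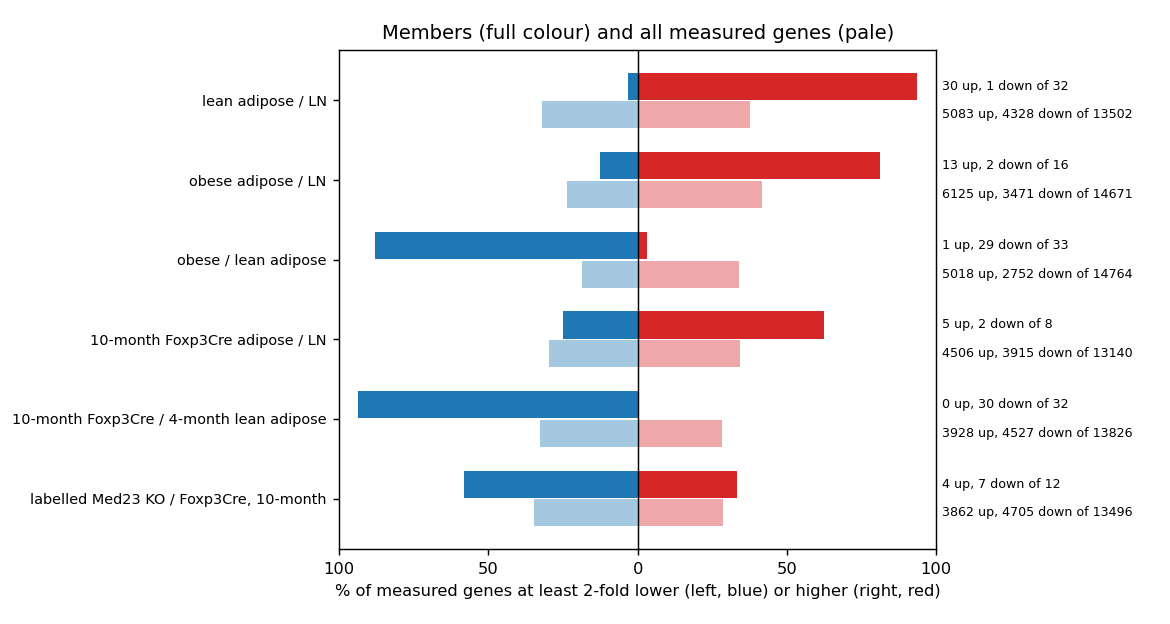
Percent of measured genes at least 2-fold higher (right, red) or lower (left, blue) in each comparison, for the members in full colour and for all genes in pale colour, with the counts printed at the right. Most measured members lie on the higher side against LN and on the lower side in obese or 10-month Foxp3Cre against lean adipose.

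The rest of the pathway was mixed between obese and lean adipose. Lower genes led among other basement membrane genes, with 6 of 8 lower and 1 higher, other glycoproteins and proteoglycans, with 11 of 16 lower and 4 higher, collagen processing, with 8 of 13 lower and 4 higher, and further fibroblast markers, with 6 of 9 lower and 1 higher. Of these, Loxl1 was at 0 in obese adipose against 44.1 CPM in lean adipose, Lox at 0 against 12.4, Ltbp1 at 0 against 31.3, Ogn at 3.87 against 79.7 and Lamb2 at 0 against 12.6. Loxl1 and Ogn are each counted both among the fibroblast markers and in another of these lists. Other collagens had 5 of 9 lower and 3 higher, led by Col6a5 at 0 against 57.3 CPM. Among other proteases and inhibitors, 8 of 13 were lower and 5 higher, with Adamts1 at 0 against 28.7 CPM, and Mmp19 at 26.2 and Timp1 at 15.2 in obese adipose against 0 in lean adipose.

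PDGF and TGF-beta ligands had 4 of 6 higher in obese adipose, with Pdgfa at 9.60, Pdgfc at 9.20 and Pdgfb at 4.54 CPM against 0, and 1 lower, Ccn1 at 0 against 51.8 CPM. Matrix receptors had 4 of 11 higher and 3 lower, and stromal cytokines 2 of 13 higher and 5 lower, with Il6 at 42.0 against 328.9 CPM and Ccl11 at 0 against 32.2 CPM. Pathway genes outside the list thus differed in both directions.

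Markers of other cell types did not share 1 direction. Macrophage markers were higher in obese adipose in 11 of 11 genes and summed to 4923 CPM against 887 CPM in lean adipose, 5.55-fold higher (5.41 to 5.69), with C1qb at 785 against 80.3 CPM. Erythroid genes had 2 of 5 higher and 0 lower, with sums of 1066 against 584 CPM, and endothelial genes 2 of 4 measured higher and 1 lower, with sums of 93.6 against 67.3 CPM. Further mesothelial genes had 4 of 6 measured lower and 1 higher. Adipocyte markers were higher in 5 of 5 measured genes of 8 but summed to 16.4 CPM in obese adipose, against 0 in lean adipose, with Lipe at 6.67 CPM. The 40 members with no value in LN summed to 69.6 CPM in obese adipose and 1885 CPM in lean adipose, 27.1-fold lower (24.8 to 29.6), and without Dcn they were 17.8-fold lower (16.2 to 19.6). The difference was smaller over all members, with sums of 262 against 2137 CPM, 8.16-fold lower (7.79 to 8.55). The part of these cell types in the difference was not tested.

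**Figure D4:**
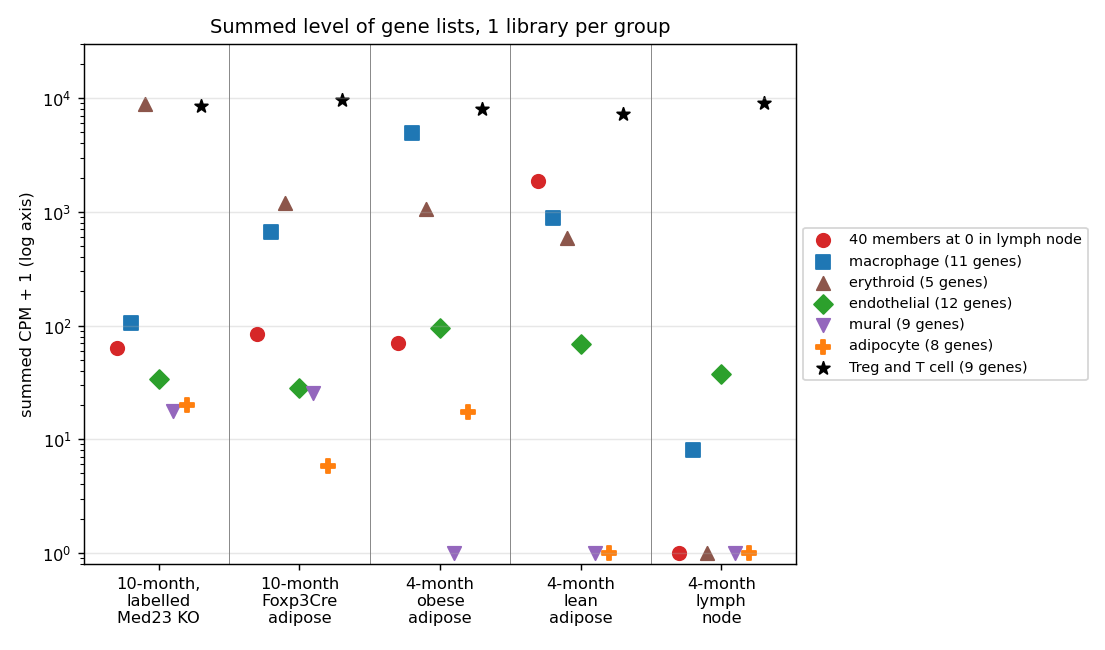
Summed CPM + 1 (log axis) of gene lists in the 5 libraries, 1 library per group; each symbol is a list and a symbol at 1 means a sum of 0. The 40 members at 0 in LN reach 1885 CPM in lean adipose and 62.0 to 82.9 CPM in the other adipose libraries, while macrophage genes peak at 4923 CPM in obese adipose and erythroid genes at 8943 CPM in the Med23 KO-labelled library.

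The 10-month Foxp3Cre adipose library was also set against 4-month lean adipose, which bears on age, in CPM across 2 tables and with the sex-linked genes and Gapdh differing as well, so that age and these differences cannot be told apart. Of 32 measured members, 0 were at least 2-fold higher, beside 28.4% of 13826 genes, and 30 at least 2-fold lower, beside 32.7%. The median log2 ratio was -3.65, against -0.17 over all genes. Of the 30, 24 were at 0 in the 10-month library, 11 listed as 0 and 13 with no value in its table. Of the 4527 lower genes among all 13826, 2353 were at 0 in the 10-month library. Dcn was 16.5-fold lower (15.0 to 18.2), at 47.98 against 790.9 CPM, and Nid1 7.95-fold lower (6.29 to 10.2), at 8.39 against 66.7 CPM. Fn1 was 3.23-fold lower (2.78 to 3.76), Lama4 2.82-fold (1.60 to 5.19) and Timp2 2.56-fold (2.22 to 2.96). Col1a2 was 34.5-fold lower (17.9 to 76.3).

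Lamc1 differed by 1.03-fold, at 136 against 140.2 CPM, with an interval of 0.950 to 1.11 for the lower side. Serpinf1 was higher, at 10.6 against 5.15 CPM, by 2.05-fold (1.43 to 2.99), but on the log2(value + 1) scale its difference was 0.91 and so was not counted. The 40 members with no value in LN summed to 82.9 CPM in 10-month Foxp3Cre and 1885 CPM in lean adipose, 22.7-fold lower (21.2 to 24.4). All members together summed to 260 against 2137 CPM, 8.23-fold lower (7.89 to 8.58). Macrophage markers were 1.35-fold lower (1.30 to 1.39) in sum, at 658 against 887 CPM, with 6 of 9 measured genes lower and 0 higher. Erythroid genes summed to 1202 against 584 CPM and endothelial genes to 27.3 against 67.3 CPM. Further fibroblast markers had 6 of 8 lower and 0 higher, and further mesothelial genes 5 of 8 lower and 3 higher. Mural genes were higher in 2 of 2 measured, with sums of 24.5 against 0 CPM. The 1 adipocyte gene measured was also higher, at 4.87 against 0 CPM. The part of these cell types was not tested.

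The last comparison asks what loss of Med23 in Tregs goes with at 10 months. As a caution, the whole-gene count of Med23 was not lower in the Med23 KO-labelled library, and the deletion could not be checked. Only 12 members were measured in its table. Of them, 4 were at least 2-fold higher, beside 28.6% of 13496 genes, and 7 at least 2-fold lower, beside 34.9%. The 4 were Fbln2 at 19.8, Col4a1 at 3.13, Col6a2 at 2.54 and Lama2 at 1.96 scaled counts in the Med23 KO-labelled library, each at 0 in 10-month Foxp3Cre. Lower were Dcn at 0 against 53.3 scaled counts, Timp2 at 0 against 32.2, Serpinf1 at 0 against 11.7, Nid1 at 0, where 2 reads were recovered, against 9.32, Lama4 at 0 against 2.07, Col1a2 at 0 against 1.04 and Lamc1 at 62.8 against 151. The median log2 ratio was -1.14, against -0.15 over all genes.

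Lamc1 was 2.41-fold lower (95% counting interval 2.13 to 2.73), and Fn1 was at 28.4 against 27.4 scaled counts, a ratio of 1.04 with an interval of 0.837 to 1.28 that includes no difference. The 40 members with no value in LN summed to 62.0 CPM in the Med23 KO-labelled library and 82.9 CPM in 10-month Foxp3Cre, 1.34-fold lower (1.17 to 1.54). Without Dcn the direction of this sum turned, with 62.0 against 34.9 CPM, 1.78-fold higher (1.51 to 2.09). The 62.0 CPM included 21.98 CPM of Fbln2, which was at 0 in 10-month Foxp3Cre, so this direction also leaned on 1 gene. All members together summed to 132 against 260 CPM, 1.97-fold lower (1.80 to 2.16). That sum stayed lower without Dcn, at 132 against 212 CPM. These sums are in CPM, while the folds of Lamc1 and Fn1 are in scaled counts. Lamc1 was at 69.9 against 136 CPM, a smaller difference than its 62.8 against 151 scaled counts. By the same factor, every ratio of the Med23 KO-labelled library to 10-month Foxp3Cre is lower in scaled counts than in CPM. Of the 12 measured members, Fn1 and Lamc1 were the 2 with a value in both libraries.

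Pathway lists in this comparison were small and mixed. Other collagens had 6 of 9 measured genes higher and 3 lower, with Col11a1 at 6.07 and Col7a1 at 4.70 scaled counts against 0, and Col18a1 at 0 against 5.06. Other proteases and inhibitors had 1 of 7 higher and 6 lower, with Serpine2 at 0 against 44.4 and Mmp9 at 0 against 25.1. Stromal cytokines and chemokines had 1 of 12 higher and 10 lower, with Cxcl2 at 43.4 against 5433 and Cxcl5 at 0 against 244 scaled counts. Macrophage markers were lower in 9 of 9 measured genes, with sums of 105 against 658 CPM, and erythroid genes were higher in 5 of 5, with sums of 8943 against 1202 CPM, 7.44-fold higher (7.29 to 7.60). The mural list summed to 16.8 against 24.5 CPM and the adipocyte list to 19.2 against 4.87 CPM. The part of these cell types in the result was not tested.

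Across the 5 libraries, the list took 0.0132%, 0.0260%, 0.0262% and 0.214% of the reads in the Med23 KO-labelled, 10-month Foxp3Cre, obese and lean adipose libraries and 0.0145% in LN. Of the 33 members at 1 CPM or more anywhere, 29 had their highest level in lean adipose, 2 in obese adipose (Timp2 and Fbln1), 1 in the Med23 KO-labelled library (Fbln2) and 1 in LN (Serpinf1). Over all 17329 genes, 20.6% had their highest level in lean adipose. Lean adipose also held 12 members that reached 1 CPM in no other library, of its 32, where over all genes 669 of 11383 did (5.88%). These 12 were Col4a2, Col5a1, Col5a2, Col6a1, Col15a1, Lamb1, Sparcl1, Mmp2, Pdgfra, Igfbp6, Ptx3 and Tm4sf1. The same figure was 1 of 15 in obese adipose (Fbln1), beside 9.43% over all genes. It was 0 in the Med23 KO-labelled, 10-month Foxp3Cre and LN libraries, beside 8.58%, 4.86% and 4.38% over all genes. With so few members, these small counts do not set the list apart from all genes.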

How the data were processed

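RNA from sorted Tregs was sequenced on an Illumina HiSeq2000 after TruSeq library preparation from 3 ug of total RNA, per the labels' protocols. Tools named in the submitters' processing notes are TopHat2 2.0.9 and Bowtie2 2.0.6, with build mm8, and the sources used here give no counter or annotation. The authors deposited 3 tables of 2 libraries each, with scaled read counts (a signal per gene, read counts multiplied by 1 factor per library, values under 1 listed as 0) and log2 fold changes, per the file headers. Every nonzero value was a whole multiple of 1 step per library, within 0.01 read, which gave the reads behind it. The authors' deposited log2 ratio gave the reads behind values listed at 0 wherever it was present, with 0.5 standing for no reads. Genes with no value were taken as having no reads, and all 324 such genes that could be checked had none in LN.

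Ratios within a table were computed from scaled counts and ratios across tables from CPM, as log2((value + 1)/(value + 1)) for genes with a value of at least 1 in either library, with a 2-fold threshold (Python 3.11.15, numpy 2.4.6, scipy 1.17.1, pandas 2.3.3, matplotlib 3.10.9). A fold is the ratio of the values with an exact 95% Clopper-Pearson counting interval on the recovered reads. Sums of lists and folds of these sums were computed from CPM in every comparison. No test was possible with 1 library per group. The script was tested on simulated data. Symbols (279 of 279 genes of the lists) and exon lengths came from GENCODE M21 and promoter windows from RefSeq GRCm38.p6, builds other than that of the tables, so the tables' own coordinates were not used. Named were all 44 members, at most the 4 measured genes of each other list with the largest absolute log2 ratio in the comparison described, and Foxp3, Med23, Ptprc, Xist, Ddx3y and Gapdh. Endothelial genes named outside this rule are marked in the text. Some genes that this rule names are not reported here. The members and lists were chosen with earlier results of these data known. Alternatives were another pseudocount, filter, threshold, scaling or centring, leaving out the 3 highest members, another denominator, and, added after seeing the data, putting back values under 1.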

Additional observations from a re-analysis of the deposited data

Results flagged for a closer look

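Col1a2, a chain of collagen I, lay on opposite sides of its LN level in different adipose libraries. Its log2(value + 1) difference from LN was 1.66 in lean adipose but -3.33 in obese adipose, in scaled counts. In 10-month Foxp3Cre adipose it was -2.31, in CPM, beside the same 1.66 in lean adipose. Each group is 1 library, so the difference between these effects was not tested, and the comparisons share the LN library. LN had 8.56 CPM of Col1a2 but 0 of Col1a1, the gene of its partner chain.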

How the results depend on the processing

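Of 114 alternative values, 23 moved (counts by over 1.5 times, shares beyond their counting interval) and 91 stayed within these limits. Each value is a count or a share, which has no sign, so a reversal could not have been seen. Leaving out members can only lower a summed share, and leaving genes out of its denominator can only raise it. In lean adipose against LN, the 1 lower member became 0 at a 4-fold threshold. In obese adipose against LN, the 13 higher members became 4 with a pseudocount of 5 and 4 when measured at 5 or more. At a 4-fold threshold they became 5, and the 2 lower became 1. Over all genes, the 6125 higher became 3363, 3742 and 3180 in the same order, and the 3471 lower became 1345. In obese against lean adipose, the 1 higher member became 0 with a pseudocount of 5 and when measured at 5 or more. In 10-month Foxp3Cre, the 2 members lower than in LN became 1 at a 4-fold threshold, and the 0 higher than in lean adipose became 1 with a pseudocount of 0.1 or after centring on the median of all genes. In the Med23 KO-labelled library against 10-month Foxp3Cre, the 4 higher members became 1 with a pseudocount of 5 and 1 when measured at 5 or more. At a 4-fold threshold they became 2, and the 7 lower became 4. Over all genes, the 3862 higher became 2507, 2869 and 1867 in the same order, and the 4705 lower became 2635.

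Without the 3 members of highest mean CPM over the 5 libraries (Dcn, Lamc1 and Timp2) the summed share was 0.00620%, 0.00464%, 0.00690% and 0.113% in the Med23 KO-labelled, 10-month Foxp3Cre, obese and lean adipose libraries and 0.00273% in LN. With a denominator without ribosomal, mitochondrial and immunoglobulin genes it was 0.0275%, 0.0278% and 0.227% in 10-month Foxp3Cre, obese and lean adipose and 0.0166% in LN. For the 10-month libraries against the 4-month ones, centring was the one other scaling, since their tables share no library. No paired analysis was possible because each group has 1 library, and no replicate could be left out. Values under 1 are listed as 0 and could be resolved only where a deposited log2 ratio was present, and the Med23 KO-labelled library, with 4595046 reads, is the shallowest.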

Other observations

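Genes whose products are assembled into 1 molecule did not stand at like levels in lean adipose. Per kilobase of exon, Col1a1 was at 1.36 and Col1a2 at 2.59 CPM per kb, Col4a1 at 1.43 and Col4a2 at 8.01, and Col6a1, Col6a2 and Col6a3 at 5.37, 1.10 and 1.89. Among the members, 4 pairs are adjacent protein-coding genes in the RefSeq order (Col3a1 and Col5a2 on chromosome 1, Dcn and Lum and also Col6a2 and Col6a1 on chromosome 10, Col4a1 and Col4a2 on chromosome 8). Both genes of each pair were at 1 CPM or more in lean adipose.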
